A study of Mus musculus with 9 samples.

Results

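Messenger RNA of 36 listed DNA repair and checkpoint genes was compared between 3 groups of mouse samples. They stand for stages in the reprogramming of fibroblasts to induced pluripotent stem (iPS) cells. The genes were listed by function, with earlier results of these data known. The functions were homologous recombination, the Fanconi pathway, mismatch repair, end joining, single-strand break repair and the damage checkpoint. Each of the genes was read from its brightest array row that carried that symbol alone. A row was found for 35 of them, of 19937 genes with such a row, and Xrcc2 had none and is not analysed here. The 9 arrays, 1 per sample, form 3 groups of 3. The first group holds fibroblasts at passage 4, derived from mice made with TSKM-iPS cells, in feeder medium. In the second, TSKM-3D, passage 4 fibroblasts had received doxycycline for 3 days in embryonic stem cell medium with LIF. The third holds an iPS cell line at passages 10 to 15, obtained with Tet1, Sox2, Klf4 and c-Myc in the same secondary system and grown on mitomycin-treated feeder fibroblasts. All 9 samples carry the strain label OG2-GFP/Rosa26-M2rtTA, in which an Oct4-driven green fluorescent reporter is combined with the doxycycline-dependent activator rtTA at the Rosa26 locus. Medium, feeders or passage also differ between the groups and cannot be told apart from stage. Below, first step means TSKM-3D against fibroblasts, second step iPS cells against TSKM-3D, and whole course iPS cells against fibroblasts. These are differences between separate samples, not the same cells followed in time. Separate cultures are not stated for the samples within a group, and the p-values below then measure only array-to-array spread, possibly technical.

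Homologous recombination rebuilds a broken chromosome from its sister copy. BRCA1 and BARD1 act where the broken ends are trimmed, PALB2 links BRCA1 to BRCA2, and BRCA2 acts at the strand exchange step. The Fanconi core complex attaches ubiquitin to the FANCD2 and FANCI pair at DNA crosslinks. The Ku proteins, XRCC5 and XRCC6, instead hold broken ends for direct rejoining by DNA ligase IV. ATM and ATR are kinases that sense damage and stalled forks and signal through CHEK2 and CHEK1. Pluripotent stem cells are known for rapid divisions with a long S phase and for high use of homologous recombination, which needs a replicated sister chromatid.

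The labels were checked against marker genes. Of 10 pluripotency markers, 10 were higher in iPS cells than in either other group. All 12 fibroblast markers were lower in iPS cells than in fibroblasts (limma adjusted p under 0.05), 10 of them at least 2-fold. Between TSKM-3D and iPS cells 8 of the 12 fell at least 2-fold and 1, Dcn, rose (1.45 on the log2 scale). RNA of the feeder fibroblasts in the iPS samples was not measured. The mean log2 level of the fibroblast markers was 10.67 to 10.76 on fibroblast arrays, 9.28 to 9.32 on TSKM-3D arrays and 7.93 to 8.13 on iPS arrays. Over 10 macrophage markers it was 6.77 to 6.93, 5.56 to 5.72 and 5.95 to 6.01. The third fibroblast array carries a cell type label of 3-day induced cells against its title, source and passage, and it was kept with the fibroblasts; its Pearson correlation across genes, which are not independent, was 0.9978 and 0.9984 to the other arrays so titled, and 0.9509 to 0.9548 to TSKM-3D. Without it no member's call changed. Of the introduced factors, Sox2 and Myc rose at TSKM-3D (1.39 and 1.60), Klf4 differed by 0.04, and Tet1 fell there by 1.13 on the log2 scale. Whether these rows read the introduced copies is not known, so they do not test the label. In these bulk samples fewer cells of a type and less RNA per cell cannot be told apart.

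Most members changed by under 2-fold at day 3, more of them down than up, and most stood higher in iPS cells. Here a gene is called when its Benjamini-Hochberg adjusted p (limma, all 19937 genes) is under 0.05 and its change is at least 2-fold. Between fibroblasts and TSKM-3D, 4 of 35 members were called higher and 0 lower, beside 3.25% and 7.58% of all genes. With the adjusted p alone, whatever the fold, 6 members were higher and 16 lower, beside 19.2% and 25.3% of all genes. The median member differed by -0.29 and the median gene by 0.05. Between TSKM-3D and iPS cells 19 were called higher and 0 lower, where 6.48% and 8.57% of all genes were called, and the median member differed by 1.22 and the median gene by -0.01. Against fibroblasts, iPS cells had 18 members called higher and 0 lower, beside 7.63% and 13.8% of all genes, with a median of 1.22 for members and 0.05 for all genes. The comparisons of iPS cells with TSKM-3D and with fibroblasts share the iPS arrays.

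For 30 of the 35 members all 3 iPS arrays read above all 6 other arrays, a pattern found in 17.7% of all genes. For 18 members the 3 TSKM-3D arrays lay below all 6 others, against 9.85% of all genes. A further test compared the steps (difference of the 2 steps in the same fit, limma, Benjamini-Hochberg adjusted p under 0.05). In the second step 20 members rose by at least 1 log2 unit more than in the first. For 1 member, Xrcc6, the second step was at least 1 unit smaller. The shares of all genes were 12.9% and 9.91%. Xrcc6 lay on that line (-1.01, SE 0.14), and the step test was not repeated under the alternatives described below. No comparison was called in 14 of the 35 members and in 14469 of all 19937 genes.

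**Figure D1:**
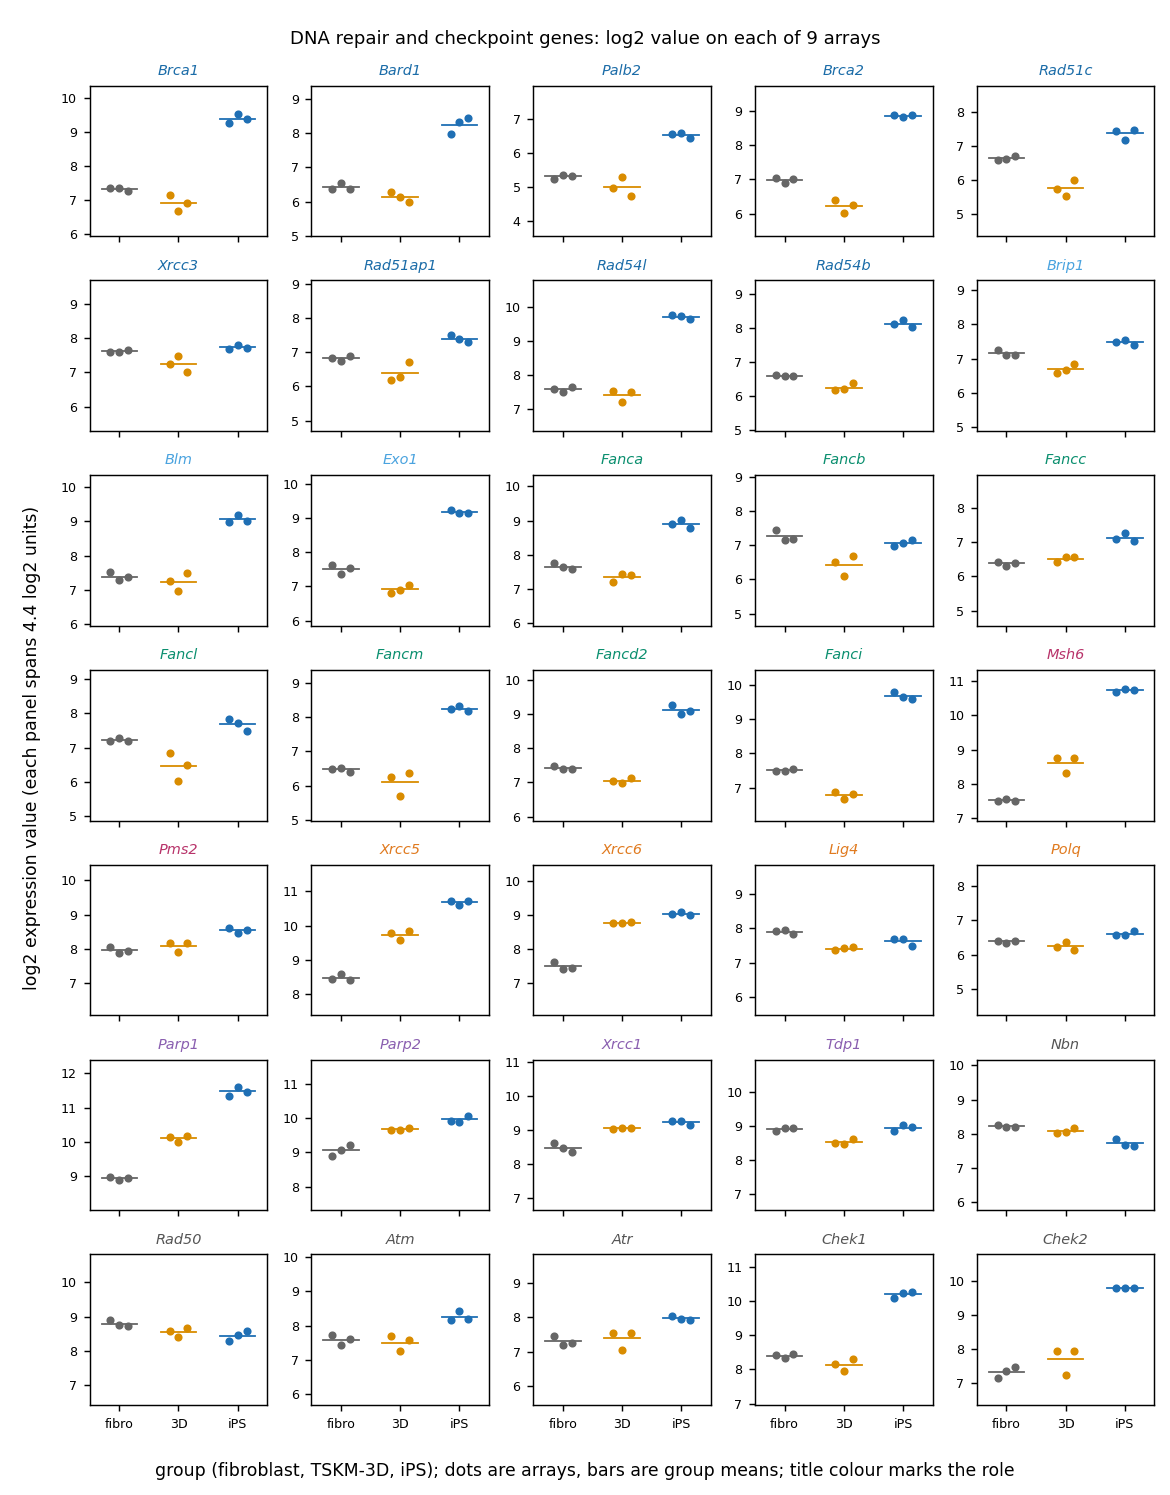
Log2 expression value of each of the 35 members on the 9 arrays, by group (fibroblast, TSKM-3D labelled 3D, iPS); dots are arrays, bars are group means, each panel spans the same log2 range, and title colours mark the 7 roles in the order of the text. Most recombination and Fanconi genes dip at 3D and stand highest in iPS cells. Msh6, Xrcc5 and Parp1 climb in both steps, and Nbn and Rad50 have their lowest means in iPS cells.

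Strand exchange genes had lower means at TSKM-3D, and in the second step most rose, Brca2 and Brca1 by the largest amounts. The means of all 9 measured were lower in TSKM-3D than in fibroblasts by 0.15 to 0.87 on the log2 scale, 6 of them with an adjusted p under 0.05 and none at 2-fold. In iPS cells 8 of 9 were called above TSKM-3D, and the iPS arrays of all 9 stood above every other array. Brca2 read 7.03, 6.91 and 7.01 in fibroblasts, 6.38, 6.01 and 6.26 at TSKM-3D and 8.89, 8.81 and 8.90 in iPS cells. The 3 groups did not overlap. Its second step was a 6.27-fold rise (2.65 ± 0.10 on the log2 scale, ± giving the SE here and below, with n = 3 in each group; limma adjusted p = 1.14e-09), after a first step of -0.76 ± 0.10 (adjusted p = 4.43e-05). Brca1 read 7.35, 7.37 and 7.27, then 7.14, 6.68 and 6.92, then 9.26, 9.52 and 9.38. Its TSKM-3D arrays were again below every fibroblast array, and it rose 5.54-fold in the second step (2.47 ± 0.11; limma adjusted p = 7.32e-09).

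Bard1, which encodes the ring-finger partner of BRCA1, read 6.36, 6.54 and 6.38 in fibroblasts, 6.26, 6.14 and 5.995 at TSKM-3D and 7.99, 8.31 and 8.43 in iPS cells. It rose 4.32-fold between TSKM-3D and iPS (2.11 ± 0.12; limma adjusted p = 3.53e-08). Its other rows differed by 1.76 and 0.99 in that step, so the size depends on the row. Rad54l, a motor protein gene of the strand exchange step, read 7.60, 7.51 and 7.64, then 7.54, 7.22 and 7.52, then 9.75, 9.73 and 9.63. Its first step was within the spread of the arrays (-0.15 ± 0.10; limma adjusted p = 0.222), and its second was 2.27 ± 0.10 (adjusted p = 3.53e-09). The paralogue Rad54b followed with 1.87 ± 0.08, and Palb2 with 1.52 ± 0.12. Palb2 was the dimmest member, at 5.31 in fibroblasts and 5.01 at TSKM-3D, under the median array row, so the size of its change is uncertain.

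Rad51c had the largest first-step fall in mean of the members, -0.87 ± 0.12 (limma adjusted p = 8.02e-05), to a TSKM-3D mean of 5.76 that is under the median array row there (6.09), so its size is uncertain too. It rose by 1.60 ± 0.12 in the second step, but against fibroblasts the iPS difference was 0.73 ± 0.12, under 2-fold. Xrcc3 was not called in any comparison: its means were 7.62, 7.24 and 7.73 across the 3 stages, and its difference between iPS cells and fibroblasts, 0.11 ± 0.10, became -0.06 when array medians were set equal. Rad51ap1, another strand exchange gene, lay on the 2-fold line with 1.00 ± 0.12 in the second step, and was below it with array medians set equal (0.89), without the first TSKM-3D array (0.90) and without the second TSKM-3D or the first iPS array (0.95 each).

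Of the helicase and resection genes, Exo1 and Blm were called and Brip1 was not. The nuclease gene Exo1 read 7.61, 7.35 and 7.54 in fibroblasts, 6.81, 6.88 and 7.05 at TSKM-3D and 9.23, 9.15 and 9.16 in iPS cells, with no overlap between groups. It rose 4.81-fold in the second step (2.27 ± 0.09; limma adjusted p = 2.73e-09). Blm, the Bloom syndrome helicase gene, read 7.51, 7.27 and 7.38, then 7.26, 6.97 and 7.50, then 8.98, 9.18 and 9.02. Its fibroblast and TSKM-3D arrays overlapped, and its second step was 1.82 ± 0.13 (adjusted p = 2.13e-07). Brip1, a helicase gene whose product binds BRCA1, differed by -0.46 ± 0.09 and then 0.78 ± 0.09, with both limma adjusted p under 0.05 (0.00123 and 1.51e-05) and both changes under 2-fold.

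Of 7 Fanconi genes 5 were called higher in the second step and 0 lower. Both subunits of the ubiquitinated pair and the fork-remodelling gene Fancm rose over 4-fold in the second step. Fanci read 7.49, 7.48 and 7.55 in fibroblasts, 6.87, 6.68 and 6.81 at TSKM-3D and 9.80, 9.65 and 9.60 in iPS cells. This 7.46-fold second step (2.90 ± 0.08 SE, n = 3; limma adjusted p = 1.96e-10) was the largest of all members, and followed a first step of -0.72 ± 0.08 (adjusted p = 2.04e-05). Its partner Fancd2 read 7.47, 7.39 and 7.39, then 7.05, 6.99 and 7.12, then 9.27, 8.995 and 9.08, a second step of 2.07 ± 0.09. Neither gene overlapped between any of the groups. Fancm read 6.47, 6.53 and 6.41, then 6.26, 5.68 and 6.38, then 8.23, 8.34 and 8.17. Its second TSKM-3D array was the lowest of the 9, and its second step was 2.14 ± 0.15 (adjusted p = 2.2e-07).

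Fanca, a core complex member, read 7.75, 7.64 and 7.58, then 7.22, 7.43 and 7.42, then 8.89, 9.01 and 8.78, a rise of 1.54 ± 0.09 in the second step (limma adjusted p = 6.26e-08). The ubiquitin ligase gene Fancl was called in the second step only, at 1.22 ± 0.17, and its TSKM-3D arrays had the widest spread of the members (SD 0.40, n = 3). Fancc and the X-linked Fancb were not called. Fancb had means of 7.26, 6.42 and 7.06, so its iPS mean was no higher than the fibroblast mean (-0.21 ± 0.14; limma adjusted p = 0.234).

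The promoters of members that rose together, and of 2 that were not called, are shown for comparison of their sequence. They are 6 members called in the second step and 2 uncalled members. The 6 had the largest second step among those that held a searched motif inside the printed window. This passes over Fanci, whose match lies within a neighbouring gene. It also passes over Exo1 (second step 2.27), which had no promoter in the sequence source and was not searched. The 2 uncalled members had the smallest iPS difference from fibroblasts. Sequences are from RefSeq, build GRCm38.p6, run 5′ to 3′ on the gene's strand, and hold up to 250 bases before the annotated start, ending at any neighbouring gene. Capitals mark matches, on either strand, to E2F motifs (TTTGGCGC, TTTCGCGC, TTTCCCGC or TTTGCCGC), the CHR element (TTTGAA or TTCGAA), the CCAAT box (CCAAT) or the NRF1 core (GCATGCGC).
Brca2, chr5:150522371-150522620, plus strand: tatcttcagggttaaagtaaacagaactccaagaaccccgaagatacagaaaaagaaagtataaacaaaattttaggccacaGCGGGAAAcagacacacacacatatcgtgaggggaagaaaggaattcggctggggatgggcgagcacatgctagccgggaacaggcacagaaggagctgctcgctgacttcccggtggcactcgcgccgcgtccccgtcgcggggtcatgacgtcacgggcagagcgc
Brca1, chr11:101551956-101552106, minus strand: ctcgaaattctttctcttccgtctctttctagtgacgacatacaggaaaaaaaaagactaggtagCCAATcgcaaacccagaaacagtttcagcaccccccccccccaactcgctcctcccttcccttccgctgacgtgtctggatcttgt
Rad54l, chr4:116123691-116123839, minus strand: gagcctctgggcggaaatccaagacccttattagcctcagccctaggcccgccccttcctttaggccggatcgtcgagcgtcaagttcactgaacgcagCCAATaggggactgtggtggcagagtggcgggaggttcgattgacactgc
Fancm, chr12:65075353-65075602, plus strand: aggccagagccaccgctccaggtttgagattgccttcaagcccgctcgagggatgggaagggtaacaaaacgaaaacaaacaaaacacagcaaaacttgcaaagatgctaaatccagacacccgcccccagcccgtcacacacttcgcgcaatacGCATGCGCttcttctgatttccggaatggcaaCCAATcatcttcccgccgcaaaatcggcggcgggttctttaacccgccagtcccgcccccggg
Msh6, chr17:87974800-87975049, plus strand: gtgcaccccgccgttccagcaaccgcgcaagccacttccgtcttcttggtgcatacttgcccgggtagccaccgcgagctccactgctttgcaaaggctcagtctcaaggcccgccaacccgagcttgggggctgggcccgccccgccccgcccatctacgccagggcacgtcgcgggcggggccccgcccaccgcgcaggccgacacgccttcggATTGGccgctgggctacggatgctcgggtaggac
Bard1, chr1:71102973-71103222, minus strand: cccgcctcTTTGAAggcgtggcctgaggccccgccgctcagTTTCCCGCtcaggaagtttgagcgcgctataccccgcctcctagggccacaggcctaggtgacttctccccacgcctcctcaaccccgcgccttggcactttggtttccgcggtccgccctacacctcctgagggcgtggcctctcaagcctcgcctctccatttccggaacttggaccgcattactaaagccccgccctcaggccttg
Tdp1, chr12:99884443-99884517, plus strand: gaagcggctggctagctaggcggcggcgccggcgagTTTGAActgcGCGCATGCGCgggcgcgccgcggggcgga
Xrcc3, chr12:111813880-111814129, minus strand: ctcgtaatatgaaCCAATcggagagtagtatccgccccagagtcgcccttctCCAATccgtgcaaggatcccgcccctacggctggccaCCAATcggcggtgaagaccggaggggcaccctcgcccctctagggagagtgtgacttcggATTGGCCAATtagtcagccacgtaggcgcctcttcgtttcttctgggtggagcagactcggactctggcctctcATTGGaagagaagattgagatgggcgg

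Promoters were found for 30 of the 35 measured members. Unlike the printed windows, the counts here cover all 250 bases before the start, also where a neighbouring gene lies there, as for Fanci. E2F letters occurred in 4 of these 30 (13.3%), namely Brca2, Bard1, Xrcc6 and Chek2, against 2.88% of 15613 measured genes with a promoter and 1.86% of all 32851 promoters in the table. The NRF1 core was found in 6 of 30 (Fancm, Fanci, Lig4, Parp2, Tdp1 and Atm; 20%), against 3.59% and 2.26%. CCAAT boxes were held by 16 of 30 (53.3%, against 38.8% and 33.8%) and CHR letters by 4 of 30 (13.3%, against 17.3% and 17.1%). Matches of different motifs did not overlap in the members. Called promoters were printed only where they held a motif, so the printed set cannot compare called with uncalled members. Xrcc3, not called, holds 6 CCAAT matches, and Tdp1, not called, holds 2 overlapping NRF1 matches and a CHR match. A match is a description of letters, not of a bound site.

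Mismatch repair was divided between its 2 members. Msh6, which encodes a mismatch-recognition subunit, read 7.50, 7.56 and 7.50 in fibroblasts, 8.77, 8.32 and 8.77 at TSKM-3D and 10.68, 10.78 and 10.74 in iPS cells. The groups did not overlap, and both steps were called: 1.10 ± 0.11 (limma adjusted p = 8.24e-06) and 2.12 ± 0.11 (adjusted p = 2.28e-08). Its 9.27-fold rise over the whole course was the largest of the members. Pms2, the endonuclease subunit gene that acts after recognition, differed by 0.12 ± 0.10 and 0.46 ± 0.10 and was not called.

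Both Ku genes rose in the first step. Xrcc5 (Ku80) read 8.43, 8.59 and 8.41 in fibroblasts, 9.79, 9.57 and 9.85 at TSKM-3D and 10.71, 10.62 and 10.71 in iPS cells. Its first step was 2.39-fold (1.26 ± 0.09; limma adjusted p = 4.92e-07) and its second, 0.95 ± 0.09, fell just short of the 2-fold line, passing it without the third TSKM-3D array (1.00). Xrcc6 (Ku70) read 7.62, 7.41 and 7.44, then 8.75, 8.76 and 8.78, then 9.01, 9.09 and 8.98. It rose 2.42-fold in the first step (1.27 ± 0.08; limma adjusted p = 1.36e-07) and differed by 0.26 ± 0.08 in the second. For Xrcc6 the second step was smaller than the first by 1.01 ± 0.14 (limma adjusted p = 8.4e-05), whereas for Xrcc5 the 2 steps differed by -0.31 ± 0.16 (adjusted p = 0.145). The ligase gene Lig4, which seals ends held by Ku, did not follow: it was lower at TSKM-3D by 0.49 ± 0.08 (limma adjusted p = 0.000417), and iPS cells differed from fibroblasts by -0.28 ± 0.08. Polq, the polymerase of microhomology-mediated joining, had means of 6.38, 6.23 and 6.61 and was not called.

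Parp1 rose in both steps. Its product senses strand breaks and builds poly(ADP-ribose). It read 8.98, 8.90 and 8.93 in fibroblasts, 10.14, 10.01 and 10.18 at TSKM-3D and 11.36, 11.61 and 11.46 in iPS cells, with no overlap. The steps were 1.17 ± 0.09 and 1.36 ± 0.09 (limma adjusted p = 4.93e-07 and 9.28e-08) and differed from each other by 0.19 ± 0.15 (adjusted p = 0.351), and the whole course gave a 5.81-fold rise. Parp2 and the scaffold gene Xrcc1 were higher at TSKM-3D by 0.62 ± 0.09 and 0.57 ± 0.08 (limma adjusted p = 0.00017 and 0.000129), under 2-fold. Over the whole course Parp2 differed by 0.91 ± 0.09, and by 1.05 after quantile normalization, which is past 2-fold. Tdp1, which frees topoisomerase I from DNA, read 8.85, 8.95 and 8.94, then 8.50, 8.48 and 8.63, then 8.85, 9.01 and 8.96. Its TSKM-3D arrays were the lowest, and its iPS difference from fibroblasts, 0.03 ± 0.08, became -0.14 with array medians set equal. A dimmer second row of Tdp1 differed by 0.26 in the first step, the opposite sign.

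Both checkpoint effector kinase genes were called higher in iPS cells, and neither apical kinase gene was. Chek1, the effector of ATR, read 8.42, 8.34 and 8.45 in fibroblasts, 8.15, 7.94 and 8.29 at TSKM-3D and 10.10, 10.23 and 10.25 in iPS cells. It rose 4.19-fold in the second step (2.07 ± 0.10; limma adjusted p = 7.48e-09). Chek2, the effector of ATM, read 7.16, 7.36 and 7.48, then 7.94, 7.25 and 7.94, then 9.79, 9.79 and 9.78. Fibroblast and TSKM-3D arrays overlapped, and the second step was 2.08 ± 0.16 (limma adjusted p = 6.34e-07). TSKM-3D arrays 1 and 3 held exactly equal values for Chek2, as for Atr. Equal values on 2 arrays of a group also occurred for Fancc at TSKM-3D and for Xrcc3, Brip1, Fancl and Polq in fibroblasts. The spread of all these genes may be understated.

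Atm read 7.72, 7.44 and 7.61, then 7.69, 7.27 and 7.57, then 8.16, 8.42 and 8.19, and Atr 7.45, 7.19 and 7.26, then 7.55, 7.04 and 7.55, then 8.04, 7.96 and 7.92. In both genes the iPS arrays were the highest, by 0.75 ± 0.12 and 0.59 ± 0.13 over TSKM-3D (limma adjusted p = 0.000263 and 0.00288), under 2-fold. Their first steps, -0.08 ± 0.12 and 0.08 ± 0.13, were within the spread, and the sign turned for Atm after quantile normalization and without the second TSKM-3D array (0.04), and for Atr without the first or the third TSKM-3D array (-0.0039). The end-sensing genes Nbn and Rad50, subunits of one complex with the nuclease MRE11, were the only members with a lower mean in iPS cells than in both other groups. Nbn read 8.25, 8.19 and 8.21, then 8.01, 8.04 and 8.18, then 7.85, 7.66 and 7.64, and differed by -0.50 ± 0.08 between iPS cells and fibroblasts (limma adjusted p = 0.000295), although its dimmer second row differed by 0.26. Rad50 differed by -0.36 ± 0.10 (adjusted p = 0.00914), but its iPS and TSKM-3D arrays overlapped (-0.11 ± 0.10; limma adjusted p = 0.442). Mre11a, the gene of their nuclease partner and not a member, was called higher in iPS cells than in fibroblasts (1.13 ± 0.09; limma adjusted p = 4.75e-07).

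**Figure D2:**
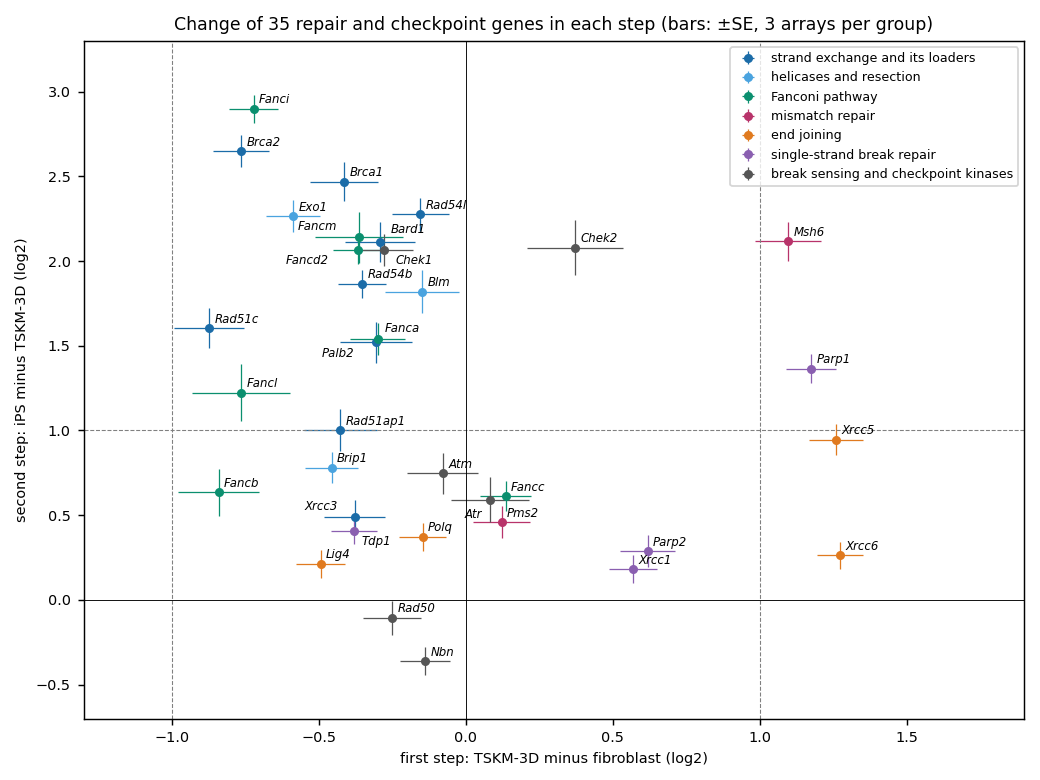
Log2 difference of each of the 35 members in the first step (TSKM-3D minus fibroblast, horizontal) and the second (iPS minus TSKM-3D, vertical), with bars of ±SE and colours for the roles; dashed lines mark 2-fold. Both axes share the TSKM-3D arrays. The strand exchange genes and all Fanconi genes but Fancc lie left of 0 and above 0, Msh6, Parp1, Xrcc5 and Xrcc6 lie right of the 2-fold line, and Rad50 and Nbn lie below 0.

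Cell cycle lists dipped at TSKM-3D as the strand exchange genes did, and were higher again in iPS cells. The mismatch, end joining and single-strand break groups instead had higher mean levels at TSKM-3D than in fibroblasts. The mean log2 level of the 9 strand exchange genes was 6.80 to 6.83 on fibroblast arrays, 6.32 to 6.41 at TSKM-3D and 8.13 to 8.17 in iPS cells. Over 24 S phase genes it was 8.80 to 8.85, 8.23 to 8.43 and 9.68 to 9.72, and over 19 mitosis genes 9.65 to 9.71, 8.55 to 8.86 and 9.73 to 9.77. Of the S phase genes 3 were called lower at TSKM-3D and 18 higher in the second step, among them the licensing gene Cdt1 at 2.47 ± 0.07. Of the mitosis genes 9 were called lower and then 8 higher. Among all genes 7.58% were called lower at TSKM-3D and 6.48% higher in the second step. The part of the cell cycle in the members' changes was not tested. Against fibroblasts, iPS cells had 13 of 24 S phase genes called higher but 1 of 19 mitosis genes, beside 7.63% of all genes. Mki67 was lower by 1.04 ± 0.13 on the log2 scale (limma adjusted p = 2.54e-05). The second TSKM-3D array was the lowest of its group for 21 of 35 members, and for 30.8% of all genes, and it was the lowest in both cycle lists.

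**Figure D3:**
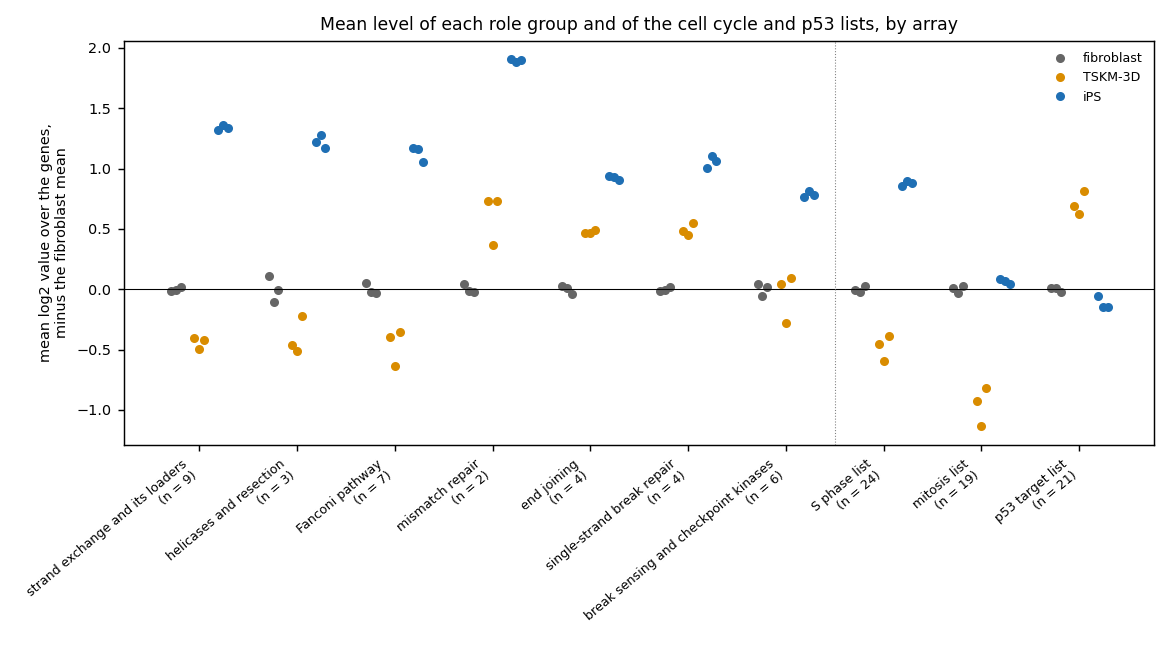
Mean log2 value over the genes of each role group, and of the S phase, mitosis and p53 target lists, minus the fibroblast mean, for each of the 9 arrays (dots, coloured by group; n is the number of genes). The recombination, helicase and Fanconi groups dip at TSKM-3D as the cycle lists do, the mismatch, end joining and single-strand groups are raised there, and the p53 target list is highest at TSKM-3D.

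Genes that p53 activates after damage were also listed. Of 21 measured, 7 were called higher and 1 lower at TSKM-3D, beside 3.25% and 7.58% of all genes. The largest rises were of the death genes Pmaip1 (2.53 ± 0.16) and Fas (2.47 ± 0.16; limma adjusted p = 1.65e-07 and 1.96e-07). In the second step 1 was called higher, Tigar at 1.68, and 7 lower, led by Fas at -3.45 and the anti-proliferative gene Btg2 at -2.08 (limma adjusted p at most 1.9e-08 for the 3). The shares of all genes in that step were 6.48% and 8.57%. The median list gene differed by 0.48 and then by -0.80.

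Other genes of the repair pathways, outside the 35 members, were counted in the same way. Of 138 measured, 3 were called higher and 12 lower at TSKM-3D, near the 3.25% and 7.58% of all genes. In the second step 37 were called higher and 5 lower, beside 6.48% and 8.57%, with medians of -0.05 and 0.54. Among 39 further recombination and Fanconi genes 15 were called higher and 0 lower in the second step, led by the nuclease-helicase gene Dna2 at 2.46 ± 0.08 and Rpa2, a subunit of the single-strand binding protein, at 2.32 ± 0.09. In the first step 6 of the 39 were lower, led by the Fanconi-associated Faap24 at -1.86 ± 0.12, and 1, Sem1, a BRCA2-binding protein gene, was higher at 1.29 ± 0.08. Of 28 further checkpoint genes 12 were called higher and 0 lower in the second step, with Rif1, which limits end resection, at 3.29 ± 0.15 and Etaa1, an ATR activator gene, at 2.80 ± 0.23.

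Excision and joining pathways were counted separately. Of all genes, 6.48% were called higher and 8.57% lower in the second step. Of 20 base excision genes 6 were called higher and 1 lower in the second step, with the uracil glycosylase gene Ung at 2.62 ± 0.08, the replicative ligase gene Lig1 at 2.40 ± 0.07 and Parp3 at -2.03 ± 0.08. Of 10 further mismatch genes, Lig1 among them, 3 were called higher and 0 lower. Of 22 nucleotide excision genes 1 was higher and 3 lower, with Ercc5 up by 1.34 ± 0.10 in the first step and down again at -1.39 ± 0.10 in the second, and Xpa at -1.07 ± 0.08. Of 12 translesion genes 1 was higher (Poli, 1.10 ± 0.09) and 1 lower (Polk, -1.66 ± 0.11). The nucleotide excision and translesion counts lay near the shares of all genes. Of 13 further end joining genes 0 were called in any of the 3 comparisons, with differences from -0.96 to 0.90.

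**Figure D4:**
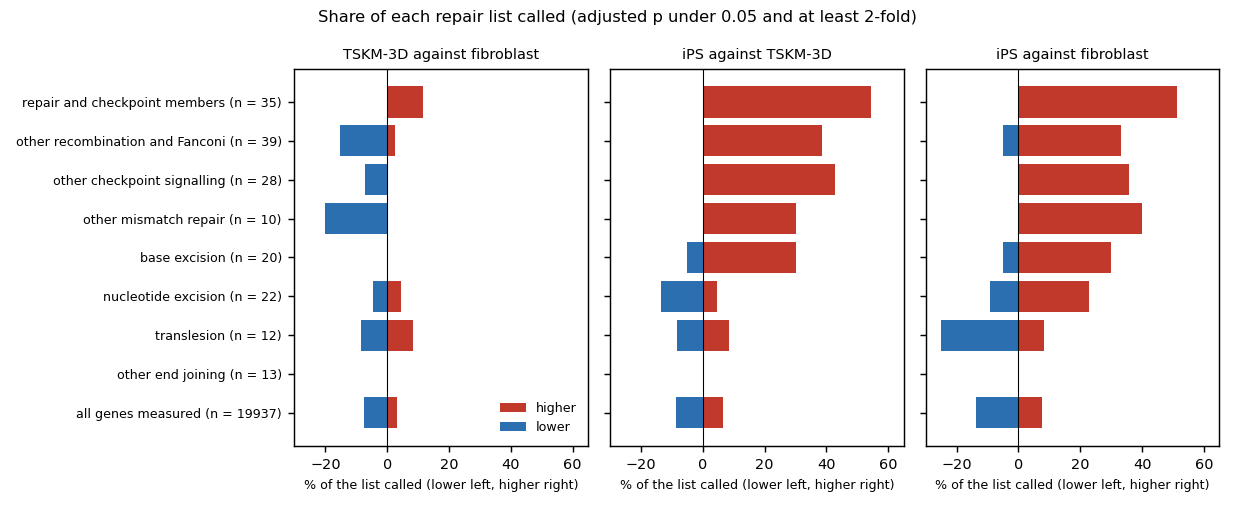
Percent of each repair list, and of all genes, called higher (right of 0) or lower (left of 0) in the 3 comparisons, at an adjusted p under 0.05 and at least 2-fold; n is the number of genes measured. In the second step the members and the other recombination and checkpoint genes have the widest bars to the right among the repair lists drawn, and other end joining genes have none.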

How the data were processed

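Total RNA taken up in Trizol was biotin-labelled with a whole-transcript terminal labelling kit, per the labels' protocols. The authors deposited log2 expression values for 34760 rows and 9 arrays, and the method behind them is not given in the sources used here. Values were used as deposited (array medians 6.014 to 6.231). By the platform's probe annotation, 21640 rows had 1 symbol, 1321 several and 11799 none, and each of 19937 genes was its row with the highest mean. One linear model over the 3 groups was fitted to all genes (limma version 3.58.1 under R version 4.3.3), with moderated variances and Benjamini-Hochberg adjustment over all genes. On simulated data for TSKM-3D against fibroblast, 200 of 19937 genes were changed. Of those set at 1.5 (log2) 98% were called, and of those set at 0.5 54% passed the adjusted p alone. In the data 8886 genes passed the adjusted p alone in that comparison, so these shares need not hold there.

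The members, their roles and the other lists were chosen with earlier results of these data known. All members could be named. Array values are given for up to 4 called members a role with the largest change, for Brca1, Brca2, Atm, Atr, Chek1, Chek2, Xrcc5, Xrcc6 and Parp1, and where rows of a gene disagree. List genes are named by their 2 largest called rises and falls, or where their values stand beside a result.

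Alternatives covered scaling, row choice, dim genes, variance model, groups in the fit, fold requirement, replicate block and leaving out each array. Only 3 arrays per group limit the precision.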

Additional observations from a re-analysis of the deposited data

How the results depend on the processing

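Of 105 member differences, 8 changed call or sign under some alternative, not counting the one without a fold requirement, which changed more calls. With no fold requirement, 8886, 9088 and 10883 of all genes passed the adjusted p (limma, Benjamini-Hochberg) in TSKM-3D against fibroblast, iPS against TSKM-3D and iPS against fibroblast. Members passing were then 6 higher and 16 lower in the first, 31 higher and 1 lower in the second, and 29 higher and 3 lower in the third. Differences near 0 turned sign. Between TSKM-3D and fibroblast, Nbn became 0.0064 and Atm 0.0209 after quantile normalization, and Nbn 0.0729 as the mean of its rows. Between iPS and fibroblast, Xrcc3 became -0.0601 and Tdp1 -0.1421 with array medians set equal. Leaving out 1 array at a time, the values ran from -0.1673 to 0.0411 for Atm and from -0.0039 to 0.2528 for Atr between TSKM-3D and fibroblast, and from -0.0082 to 0.0717 for Tdp1 between iPS and fibroblast. None of the values with a turned sign passed the adjusted p. Setting the medians equal moved the median gene from 0.05 to -0.12 in iPS against fibroblast and from -0.01 to -0.13 in iPS against TSKM-3D, and members called higher were then 18 and 18. Called members numbered 4 higher at TSKM-3D without any 1 array, 18 to 20 in the second step and 18 over the whole course. The replicate block left 2159, 3001 and 4283 genes called, as without it, and changed no member's call. It could hardly do otherwise, because in this balanced design the block leaves every difference as it was. Without the block the highest adjusted p (limma) of any gene past 2-fold was 0.0225, so the fold alone set the calls. Deviations from the group means had correlations across genes of -0.098 to 0.062 for same-numbered arrays and -0.132 to 0.13 for others. With 3 arrays per group, these overlapping ranges cannot show whether the numbers pair the samples.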
